A study of Homo sapiens with 9 samples.

Results

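The genes examined here were DLG1, DLG3, DLG4, DLG5, SCRIB, LLGL1, LLGL2, PARD3 and PARD6B, which encode scaffolds of the DLG, Scribble and PAR polarity modules. They were chosen by name as polarity scaffolds, with earlier results of these data known, and found by Ensembl identifier, 9 of 60664 genes listed in the count files. RNA was sequenced from MDA-MB-231, an established human line of triple-negative breast cancer, after 6 days at a set viscosity of the culture medium. Each of 3 groups had 3 libraries: scramble control (SC) cells at 0.77 cP, the viscosity of plain medium, SC cells at 8 cP, and cells with a hairpin against TRPV4 (shTRPV4) at 8 cP. TRPV4 is a calcium-permeable channel that opens in response to mechanical and osmotic stimuli. All groups carried a stably integrated pLKO.1 puro hairpin vector. By the methods the shTRPV4 libraries carried a single hairpin sequence, so effects of that hairpin outside TRPV4 cannot be told apart from the knockdown here. Outside these libraries, the paper checked the role of TRPV4 in migration with another hairpin sequence and with an inhibitor. No shTRPV4 library at 0.77 cP was analysed here, so the hairpin was compared with its control only at 8 cP. The paper describes media thickened with methylcellulose, and with dextran or polyvinylpyrrolidone as alternatives. These libraries include no polymer control at 0.77 cP, so effects of viscosity and of the additive cannot be told apart.

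Cell polarity proteins divide the surface of an epithelial cell into territories. Scribble, DLG and LGL proteins work together at the basolateral side, whereas PAR3, PAR6 and atypical protein kinase C (aPKC) act at the apical side and in the front of migrating cells, and each set excludes the other from its territory. In breast epithelium these scaffolds help to build junctions and orient acini, and SCRIB also connects polarity to the Hippo kinases that hold back the coactivators YAP and TAZ.

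Total counts ran from 64571681 to 103518036 per library, and 18264 genes were tested, the 9 polarity genes among them. TRPV4 was close to the limit of detection in the SC cells, at 0.462 ± 0.055 counts per 1000000 (CPM; SD, n = 3) at 0.77 cP and 0.459 ± 0.191 at 8 cP, and stood at 0.0777 ± 0.0655 in the shTRPV4 cells, a log2 fold change of -2.51 ± 0.49 (SE) at 8 cP (edgeR quasi-likelihood test, Benjamini-Hochberg adjusted p = 0.00219). The libraries expressed VIM, CD44, KRT8 and KRT18, while ESR1 and PGR, the oestrogen and progesterone receptors, never exceeded 4 counts, and CDH1, encoding E-cadherin, never exceeded 12. The 4 markers of other cell types (PTPRC, CD3E, PECAM1 and COL1A1) were low, with CD3E at 0 in 6 of 9 libraries. PTPRC had at most 17 counts, whereas PECAM1 reached 468 and COL1A1 650. The summed level of the 4 markers moved with the groups, from 10.2 to 12.5 CPM in SC at 0.77 cP, from 7.66 to 8.20 in SC at 8 cP and from 6.70 to 6.80 in shTRPV4 at 8 cP. In the same order of groups, mean CPM fell for PECAM1 (5.04, 2.75 and 2.18) and COL1A1 (6.40, 5.03 and 4.43). PTPRC did not follow that order (0.099, 0.147 and 0.121). The part of these markers in the differences between groups was not tested.

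The upstream sequence of 4 of the genes was found in the RefSeq table of GRCh38.p14. It is shown as a description only. DLG1 on the one hand and DLG3 and DLG4 on the other moved in opposite directions between the viscosities. No link between these sequences and the changes in level was tested. Of the 5 starts listed for DLG1, 3 for DLG3, 5 for DLG4 and 1 for LLGL1, the start nearest the 5′ end of the gene was taken, with the 250 bases before it at chr3:197299322-197299571 (minus strand), chrX:70444585-70444834 (plus), chr17:7219837-7220086 (minus) and chr17:18225385-18225634 (plus). The table gave nothing for DLG5, SCRIB, LLGL2, PARD3 and PARD6B. Capitals mark a match to 1 of 3 motifs searched on both strands: GGAATG (TEAD), CACCTG (E2-box) and GCGGGGGCG (EGR).
DLG1: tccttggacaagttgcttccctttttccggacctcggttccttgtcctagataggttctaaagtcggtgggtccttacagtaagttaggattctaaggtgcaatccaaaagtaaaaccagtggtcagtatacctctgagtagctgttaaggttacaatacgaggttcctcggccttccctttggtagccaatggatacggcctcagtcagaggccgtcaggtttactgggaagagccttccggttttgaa
DLG3: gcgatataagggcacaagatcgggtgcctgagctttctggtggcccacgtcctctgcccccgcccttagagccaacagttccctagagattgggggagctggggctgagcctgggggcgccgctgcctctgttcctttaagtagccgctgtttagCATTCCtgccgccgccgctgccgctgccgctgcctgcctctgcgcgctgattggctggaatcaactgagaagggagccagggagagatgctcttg
DLG4: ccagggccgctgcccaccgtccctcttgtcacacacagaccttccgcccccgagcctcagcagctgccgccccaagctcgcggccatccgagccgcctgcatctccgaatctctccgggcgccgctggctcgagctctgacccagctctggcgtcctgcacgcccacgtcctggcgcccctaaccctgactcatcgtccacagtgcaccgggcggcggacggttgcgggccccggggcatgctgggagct
LLGL1: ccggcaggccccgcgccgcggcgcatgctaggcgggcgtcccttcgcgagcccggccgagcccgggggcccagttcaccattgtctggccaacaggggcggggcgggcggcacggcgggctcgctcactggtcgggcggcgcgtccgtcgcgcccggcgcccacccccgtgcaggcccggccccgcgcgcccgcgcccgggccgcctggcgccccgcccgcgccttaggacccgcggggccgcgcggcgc

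The DLG3 window held the only match among these 4, a TEAD hexamer read as CATTCC and beginning 95 bases before the start. The same hexamer occurred in 11.9% of 35114 promoter windows of this length, the E2-box in 17.5% and the EGR motif in 4.72%. The windows differed in base composition: GC content was 48% for DLG1, 62.8% for DLG3, 71.6% for DLG4 and 84.8% for LLGL1, against a median of 58% over all promoters. These values depended on the start taken. Over all starts listed, GC content ran from 38% to 67.2% for DLG1, 57.2% to 74.4% for DLG3 and 56.4% to 73.6% for DLG4. Further starts of DLG1 and DLG3 each held 1 E2-box, 249 and 220 bases before the start. Counts per gene do not separate these starts, so no level can be assigned to any of them.

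At 8 cP the SC cells carried more DLG1 and SCRIB RNA and less DLG3, DLG4 and LLGL2 RNA than at 0.77 cP, while DLG5, LLGL1, PARD3 and PARD6B did not pass the test. Thus 5 of 9 polarity genes were called, 2 higher and 3 lower, where 19.3% of all genes tested were called (9.57% higher and 9.69% lower; edgeR quasi-likelihood test at an adjusted p of 0.05). Among genes with at least 10 counts in every library 22.6% were called, and the 9 polarity genes had at least 792. The changes were small: the median absolute log2 fold change was 0.15 over the 9 genes and 0.15 over all genes. The median with its sign was -0.04 against -0.01 for all genes. For 8 of 9 genes the 3 libraries at one viscosity lay wholly above or below those at the other, 4 in each direction, where the same held for 38.4% of all genes. In bulk RNA, a change in the cells present and a change in RNA per cell cannot be told apart. The study itself showed 7 of these genes, all but LLGL2 and PARD6B, in a panel of Hippo pathway genes from the same libraries. Neither their directions nor the share of the 9 genes called, here and in the other comparisons, is therefore independent evidence.

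**Figure D1:**
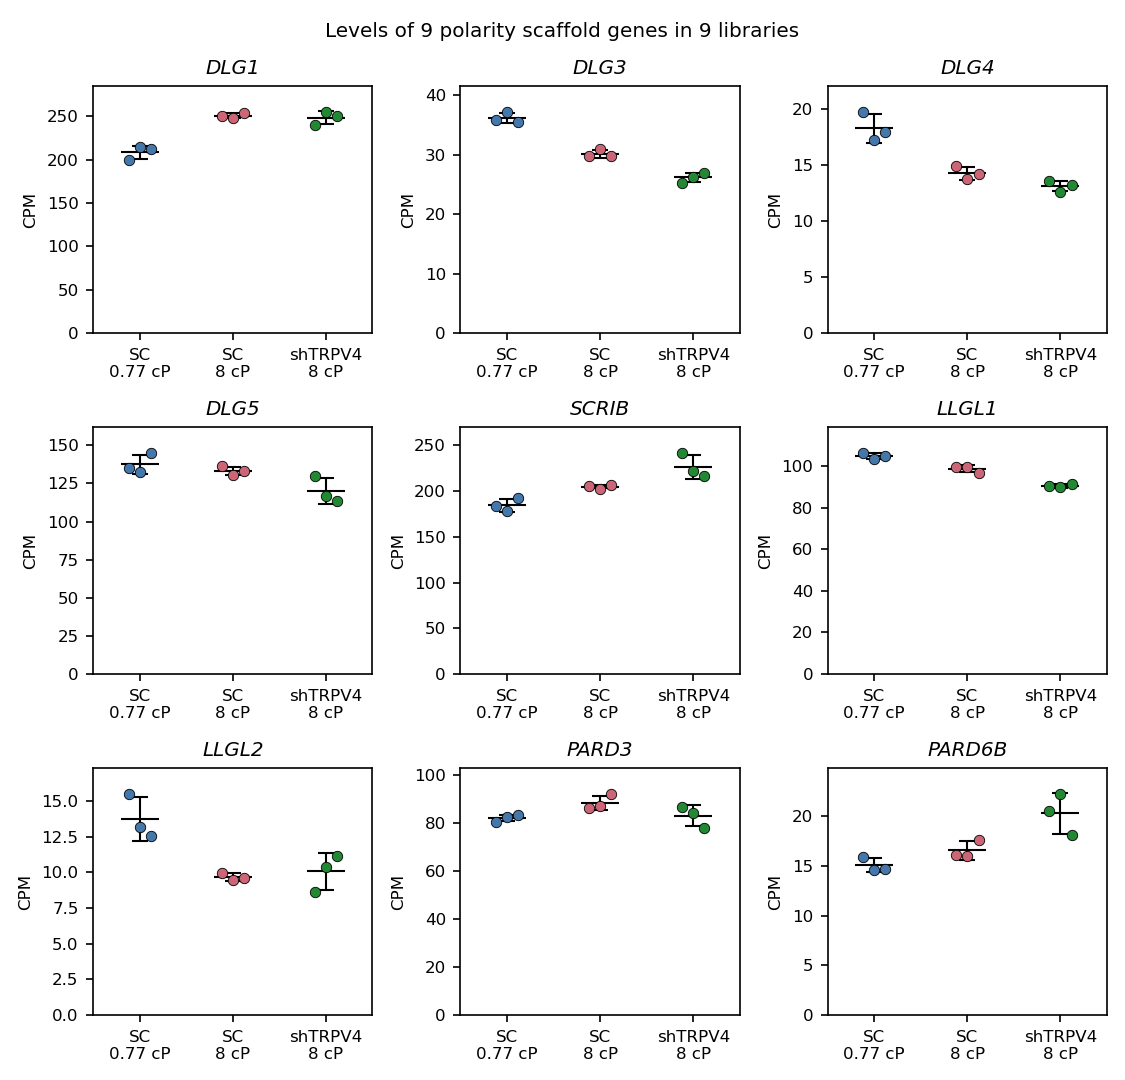
Level of each of the 9 polarity genes as CPM after TMM scaling (vertical axis from 0, a separate scale for each gene) in the 3 libraries of each group. Points are libraries, long bars the group mean and whiskers 1 SD. DLG1 rises from SC 0.77 cP to SC 8 cP and is level with it in shTRPV4, DLG3 steps down across the 3 groups, and the PARD3 groups lie close together.

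DLG1 (ENSG00000075711; chromosome 3, 197042560 to 197299330, minus strand), also known as SAP97, is a membrane-associated guanylate kinase that gathers receptors and junction proteins on its PDZ domains. Its level was 200.0, 214 and 212 CPM in the SC libraries at 0.77 cP, 251, 247 and 254 CPM at 8 cP, and 240.0, 254 and 251 CPM in shTRPV4 at 8 cP. Every 8 cP library, with or without the hairpin, stood above every 0.77 cP library, and the libraries at 8 cP overlapped between the lines. DLG1 was 20.2% higher at 8 cP than at 0.77 cP in SC cells (log2 fold change 0.26 ± 0.04, 95% interval 0.17 to 0.36; edgeR adjusted p = 0.00115). Between the lines at 8 cP the difference was -0.01 (interval -0.10 to 0.08; edgeR adjusted p = 0.873), and shTRPV4 at 8 cP exceeded SC at 0.77 cP by 0.25 on the log2 scale (edgeR adjusted p = 0.000244). Exons of DLG1 share 479 of 16552 bases with the antisense gene DLG1-AS1, which had at most 60 counts in any library.

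DLG3 (ENSG00000082458; chromosome X, 70444835 to 70505490, plus strand) and DLG4 (ENSG00000132535; chromosome 17, 7187187 to 7219841, minus strand) encode SAP102 and PSD-95, scaffolds best known from the postsynaptic density of neurons. DLG3 stood at 35.8, 37.1 and 35.5 CPM in SC at 0.77 cP, 29.8, 31.0 and 29.9 CPM in SC at 8 cP, and 25.3, 26.3 and 27.0 CPM in shTRPV4 at 8 cP. The groups formed 3 steps with no overlap between any of them. DLG3 fell by 0.26 on the log2 scale with viscosity (SE 0.05; edgeR adjusted p = 0.00279) and fell by a further 0.21 between SC and shTRPV4 at 8 cP (SE 0.05; edgeR adjusted p = 0.00819). Both calls held whichever library was left out. Between the extreme groups the change was -27.6% in shTRPV4 at 8 cP (edgeR adjusted p = 3.11e-06).

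DLG4 stood at 19.7, 17.2 and 17.9 CPM in SC at 0.77 cP, 14.9, 13.8 and 14.1 CPM in SC at 8 cP, and 13.5, 12.6 and 13.2 CPM in shTRPV4 at 8 cP. Each group lay below the one before it, with a narrow gap between the lines at 8 cP. With viscosity DLG4 fell by 0.36 (SE 0.07; edgeR adjusted p = 0.00263), and the difference between the lines was -0.12 (interval -0.26 to 0.02; edgeR adjusted p = 0.242). Against SC at 0.77 cP the shTRPV4 cells had a DLG4 log2 fold change of -0.48 (edgeR adjusted p = 4.59e-05). Exons of DLG4 overlap ACADVL, a mitochondrial acyl-CoA dehydrogenase gene on the other strand with 14960 to 23558 counts per library, over 49 of 10282 exon bases. The strand option of the counting was not given in the sources used here.

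DLG5 (ENSG00000151208; chromosome 10, 77790791 to 77926755, minus strand) is a longer relative with roles in epithelial junctions. Its level was 135, 133 and 145 CPM in SC at 0.77 cP, 136, 131 and 133 CPM in SC at 8 cP, and 129.9, 117 and 114 CPM in shTRPV4 at 8 cP. The SC groups overlapped, and the shTRPV4 libraries lay just below them. The log2 fold change was -0.04 with viscosity (interval -0.16 to 0.07; edgeR adjusted p = 0.607) and -0.15 between the lines (interval -0.26 to -0.04; edgeR adjusted p = 0.0572). Against SC at 0.77 cP the shTRPV4 level was lower by a called difference of -0.19 (edgeR adjusted p = 0.00775). The comparison between the lines lay near the threshold: the adjusted p came to 0.0473 with DESeq2, 0.0419 with upper quartile scaling in edgeR and 0.0386 in edgeR with no filter on low counts, and to between 0.00641 and 0.0386 without SC 0.77 cP replicate 3 or shTRPV4 replicate 1. For DLG5, 14.4% of the 100-base windows of its transcripts also occur in transcripts of another annotated gene, against 1.33% for DLG1 and 0% for the other 7 genes. Of the annotated genes that overlap its exons, none had more than 38 counts in any library.

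SCRIB (ENSG00000180900; chromosome 8, 143790920 to 143815773, minus strand) encodes Scribble, a leucine-rich repeat and PDZ protein that recruits the other basolateral factors. It stood at 183, 178 and 192 CPM in SC at 0.77 cP, 206, 203 and 206 CPM in SC at 8 cP, and 241, 222 and 216 CPM in shTRPV4 at 8 cP. The 3 groups rose in steps without overlap, in the opposite direction to DLG3. SCRIB was 11.0% higher with viscosity (log2 fold change 0.15 ± 0.05; edgeR adjusted p = 0.0397) and 10.5% higher in shTRPV4 than in SC at 8 cP (0.14 ± 0.05; edgeR adjusted p = 0.0448). Across the extreme groups the log2 fold change was 0.29 ± 0.05 (edgeR adjusted p = 0.000158). Each of the smaller steps depended on single libraries. The viscosity call held only without SC 0.77 cP replicate 3, shTRPV4 replicate 1 or shTRPV4 replicate 3, and elsewhere the edgeR adjusted p was 0.0555 to 0.129. The call between the lines held only without SC 0.77 cP replicate 3 or shTRPV4 replicate 3, with 0.0541 to 0.172 elsewhere, whereas the call across the extreme groups held whichever library was left out.

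LLGL1 (ENSG00000131899; chromosome 17, 18225635 to 18244875, plus strand) and LLGL2 (ENSG00000073350; chromosome 17, 75525080 to 75575209, plus strand) encode the LGL proteins, which aPKC phosphorylates and drives off the membrane. LLGL1 stood at 106, 103 and 105 CPM in SC at 0.77 cP, 99.9, 99.8 and 96.9 CPM in SC at 8 cP, and 90.3, 89.8 and 91.6 CPM in shTRPV4 at 8 cP. The libraries of each group were close together and the groups did not overlap. With viscosity the LLGL1 log2 fold change was -0.08 (interval -0.17 to -0.0002; edgeR adjusted p = 0.151), which missed the threshold, and between the lines it fell by 0.13 on the log2 scale (SE 0.04; edgeR adjusted p = 0.0359). That call was lost when any of the 6 libraries at 8 cP was left out (edgeR adjusted p 0.0553 to 0.129) and in the fit with no filter on low counts (0.121). The change from SC at 0.77 cP to shTRPV4 at 8 cP was -13.6% (edgeR adjusted p = 0.000544). LLGL1 shares 61 of 6568 exon bases with FLII, an actin-binding gelsolin relative with 27284 to 52420 counts per library.

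LLGL2, the paralogue more common in epithelia, showed the largest viscosity change of the 9 genes. It stood at 15.5, 13.2 and 12.6 CPM in SC at 0.77 cP, 9.95, 9.44 and 9.64 CPM in SC at 8 cP, and 8.65, 10.4 and 11.2 CPM in shTRPV4 at 8 cP. All libraries at 8 cP lay below those at 0.77 cP, and the shTRPV4 libraries spread to either side of the SC libraries at the same viscosity. LLGL2 fell by 29.6% with viscosity (log2 fold change -0.51 ± 0.10, interval -0.71 to -0.30; edgeR adjusted p = 0.00279). Between the lines the difference was 0.06 (interval -0.15 to 0.26; edgeR adjusted p = 0.733). With 792 to 1458 counts per library, LLGL2 had the lowest counts of the 9 genes and the widest errors.

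PARD3 (ENSG00000148498; chromosome 10, 34109560 to 34815325, minus strand) encodes PAR3, the multi-PDZ scaffold that anchors the apical complex. It stood at 80.4, 82.5 and 83.1 CPM in SC at 0.77 cP, 86.3, 87.0 and 91.8 CPM in SC at 8 cP, and 86.7, 84.1 and 78.1 CPM in shTRPV4 at 8 cP. The SC libraries at 8 cP were the highest on average, and the shTRPV4 libraries overlapped both SC groups. No comparison was called: the log2 fold change was 0.11 with viscosity (interval 0.01 to 0.21; edgeR adjusted p = 0.128), -0.09 between the lines (interval -0.19 to 0.01; edgeR adjusted p = 0.202) and 0.02 across the extreme groups (interval -0.09 to 0.12; edgeR adjusted p = 0.816).

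PARD6B (ENSG00000124171; chromosome 20, 50731580 to 50756795, plus strand) encodes a PAR6 protein, the adaptor that links active CDC42 to aPKC. It stood at 15.9, 14.7 and 14.7 CPM in SC at 0.77 cP, 16.1, 16.0 and 17.7 CPM in SC at 8 cP, and 20.5, 22.2 and 18.2 CPM in shTRPV4 at 8 cP. The shTRPV4 libraries were the highest, and the SC groups nearly touched. With viscosity the log2 fold change was 0.13 (interval -0.03 to 0.29; edgeR adjusted p = 0.246). PARD6B was 22.5% higher in shTRPV4 than in SC at 8 cP (0.29 ± 0.08; edgeR adjusted p = 0.0128), which was lost without SC 8 cP replicate 1, SC 8 cP replicate 2 or shTRPV4 replicate 2 (edgeR adjusted p 0.0586 to 0.0779). Against SC at 0.77 cP it was 34.2% higher (0.42 ± 0.08; edgeR adjusted p = 0.000345), which no left-out library undid.

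Between the lines at 8 cP, then, SCRIB and PARD6B were higher in shTRPV4 cells and DLG3 and LLGL1 lower, 4 of 9 genes called where 20.0% of all genes tested were called (9.02% higher and 11.0% lower; edgeR). With at least 10 counts required in every library, 22.9% of all genes were called. The median log2 fold change of the 9 genes was -0.09, against 0.00064 over all genes, and the median absolute change was 0.13 against 0.15. The groups did not overlap for 6 of 9 genes, 2 higher and 4 lower, where 36.3% of all genes did not overlap. The count of calls rested on single libraries: it was 1 without SC 8 cP replicate 1, SC 8 cP replicate 2 or shTRPV4 replicate 2, 2 without SC 8 cP replicate 3, and 5 at most.

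Across the extreme groups, shTRPV4 at 8 cP against SC at 0.77 cP, DLG1, SCRIB and PARD6B were higher and DLG3, DLG4, DLG5, LLGL1 and LLGL2 lower. These 8 of 9 calls held without each library in turn, where 42.4% of all genes tested were called (20.4% higher and 22.0% lower; edgeR). With at least 10 counts required in every library, the share of all genes was 47.8%. The median absolute log2 fold change was 0.29 over the 9 genes and 0.23 over all genes, and the groups did not overlap for 8 of 9 genes against 50.6% of all genes. This comparison changes viscosity and hairpin together. The viscosity and the hairpin comparisons share the SC 8 cP libraries, so their values stand side by side without a measure of agreement.

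**Figure D2:**
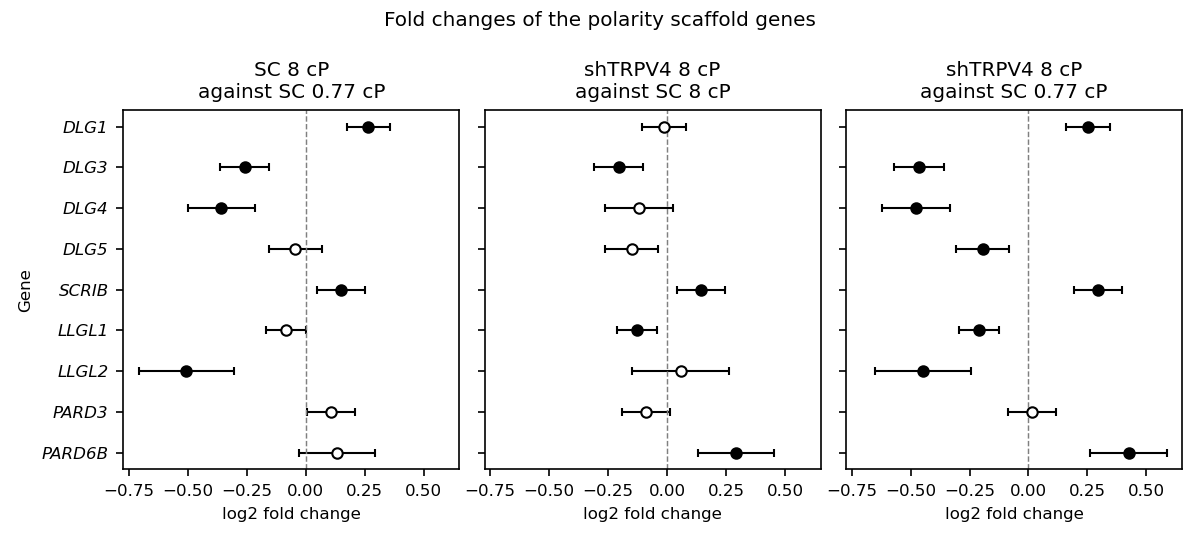
Log2 fold change of each polarity gene in the 3 comparisons (horizontal axis), with 95% intervals from the edgeR fit. Filled points have an adjusted p below 0.05. DLG1, DLG4 and LLGL2 change with viscosity and have intervals that span 0 between the lines. DLG3 has filled points below 0 in all 3 comparisons and SCRIB above 0. The points of DLG4, DLG5 and LLGL1 also lie below 0 in all 3, and those of PARD6B above 0, but not all are filled.

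**Figure D3:**
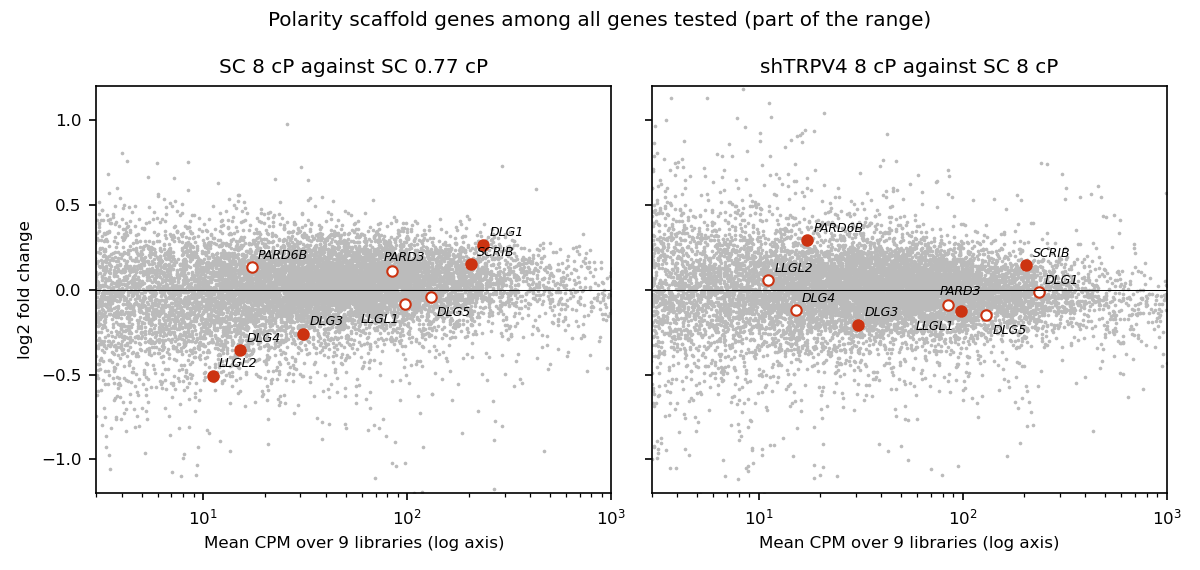
Log2 fold change (vertical axis) against mean CPM over 9 libraries (log axis) for the genes tested (grey) and the 9 polarity genes (red, filled where the edgeR adjusted p is below 0.05). The axes show part of the range. The polarity genes lie inside the cloud of all genes, and of the 9 LLGL2, at -0.51, is the farthest from 0 in the viscosity comparison.

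Per length of gene, SCRIB was the most abundant and DLG4 and LLGL2 the least. In SC at 0.77 cP the level per kilobase of exon was 28.0 ± 1.06 CPM per kb for SCRIB (SD, n = 3), 16.0 ± 0.21 for LLGL1, 13.1 ± 0.61 for DLG5, 12.6 ± 0.46 for DLG1 and 11.2 ± 0.19 for PARD3. A gap followed, with DLG3 at 4.59 ± 0.11, PARD6B at 3.22 ± 0.15, DLG4 at 1.78 ± 0.12 and LLGL2 at 1.73 ± 0.19. DLG5 and DLG1 overlapped in their libraries, as did DLG4 and LLGL2, so neither order is resolved. At 8 cP in SC cells DLG1 reached 15.1 ± 0.19 CPM per kb and overlapped LLGL1 at 15.1 ± 0.27, and PARD3 overlapped DLG5. In shTRPV4 cells PARD6B, at 4.33 ± 0.43 CPM per kb, stood above DLG3, at 3.32 ± 0.11, in every library by the union of exons. The ratio of the highest to the lowest gene was 16.2 in SC at 0.77 cP, 25.5 in SC at 8 cP and 27.1 in shTRPV4. The order depended on the length used. With the MANE Select transcript (a single reference transcript per gene) in place of the union of exons, DLG1 was ahead of SCRIB, at 43.0 ± 1.56 against 32.9 ± 1.25 CPM per kb in SC at 0.77 cP, and LLGL2 was ahead of PARD6B and DLG4 in that group. PARD6B and DLG3 then overlapped in shTRPV4 cells, at 4.43 ± 0.45 and 4.33 ± 0.14.

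**Figure D4:**
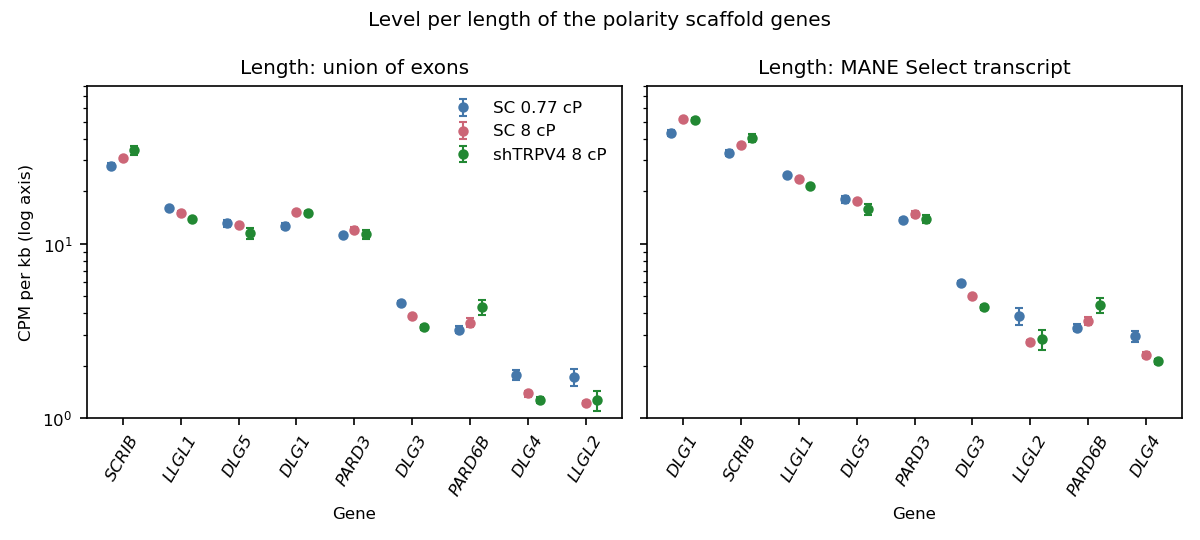
Level of each polarity gene per kilobase (CPM per kb, log axis) by group, with the length taken as the union of exons (left) or the MANE Select transcript (right). Points are means of 3 libraries and whiskers 1 SD. SCRIB is highest by the union of exons, DLG1 by the reference transcript, and DLG4 and LLGL2 are near the bottom of either order.

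The genes that work with the scaffolds were examined as 4 lists, and up to 3 of each, those with the smallest adjusted p, are given per comparison. Of 11 partners of the PAR complex and aPKC, all tested, 2 were called with viscosity in SC cells, both lower, which is 18.2% of the list against 19.3% of all genes. The kinase PRKCZ (aPKC zeta) fell by 0.34 on the log2 scale (edgeR adjusted p = 0.0154), and the microtubule affinity kinase MARK4 fell by 0.16 (edgeR adjusted p = 0.0408). The scaffold PARD3B, a PARD3 paralogue, was at 0.22 and not called (edgeR adjusted p = 0.0898). The PRKCZ call was lost without SC 0.77 cP replicate 1, SC 8 cP replicate 2 or SC 8 cP replicate 3 (edgeR adjusted p 0.0614 to 0.0989), and that of MARK4 was lost when any library other than shTRPV4 replicate 1 was left out (0.0504 to 0.194) and with no filter on low counts (0.101). PARD3B passed without SC 0.77 cP replicate 3 (0.0333).

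Between the lines at 8 cP, 4 of the 11 aPKC and PAR partners were called, 2 higher and 2 lower, 36.4% of the list where 20.0% of all genes were called. PRKCZ was higher in shTRPV4 by 0.52 ± 0.09 on the log2 scale (edgeR adjusted p = 0.000771), and PRKCI, the aPKC iota isoform, by 0.22 ± 0.04 (edgeR adjusted p = 0.00246). In the same partner list CDC42, the small GTPase that PAR6 binds, fell by 0.23 ± 0.05 (edgeR adjusted p = 0.00464). These 3 calls held whichever library was left out. In CPM, PRKCI was 93.7 ± 0.93 in SC and 109 ± 3.22 in shTRPV4, and CDC42 was 447 ± 17.8 and 382 ± 22.2. PRKCZ was far less abundant, at 5.80 ± 0.73 and 8.29 ± 0.25 CPM. Exons of CDC42 share 3575 of 24398 bases with other annotated genes on the same strand, and the effect on its counts was not tested. For PRKCZ, 939 of 7695 exon bases are shared with genes on the other strand, and that effect was not tested either. Across the extreme groups 7 of 11 were called, 63.6% of the list against 42.4% of all genes. Of these 4 were higher and 3 lower, among them PRKCI at 0.29, MARK2 at 0.22 and CDC42 at -0.26 (edgeR adjusted p 6.91e-05, 0.00395 and 0.000658).

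Of 9 Crumbs complex genes, which specify the apical membrane, 6 were tested and 0 were called with viscosity by the edgeR quasi-likelihood test, 4 at an unadjusted p below 0.05 and 0 by DESeq2. PATJ, a scaffold of this complex, was at -0.18 (edgeR adjusted p = 0.0774), PALS1, its partner scaffold, at 0.11 (0.109) and the scaffold MPDZ at 0.14 (0.136). PATJ passed without SC 0.77 cP replicate 3 (0.0402) and PALS1 without shTRPV4 replicate 1 (0.0391). Between the lines 2 of 6 were lower, or 33.3%, where 20.0% of all genes were called and 11.0% were lower. MPDZ fell by 0.23 (edgeR adjusted p = 0.0216) and PATJ fell by 0.24 (edgeR adjusted p = 0.0277). LIN7C, an adaptor of the same complex, was at -0.13 and not called (edgeR adjusted p = 0.106). The MPDZ call was lost without SC 8 cP replicate 1 or 3 or shTRPV4 replicate 2 or 3 (edgeR adjusted p 0.0682 to 0.0898), and that of PATJ without SC 8 cP replicate 1 or 2 or shTRPV4 replicate 2 (0.0763 to 0.133). Across the extreme groups PATJ stood at -0.42 (edgeR adjusted p = 0.000204) and PALS1 at 0.19 (edgeR adjusted p = 0.00418), the 2 calls of this list, or 33.3% of 6 against 42.4% of all genes. Exons of PALS1 share 1661 of 14825 bases with genes on the other strand, and the effect on its counts was not tested. The transmembrane protein CRB3 was at -0.71 and not called (edgeR adjusted p = 0.0706), and passed without shTRPV4 replicate 3 (0.0245).

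Of 13 relatives and partners of Scribble and DLG, 12 were tested. With viscosity 1 was called, 8.33% of the list against 19.3% of all genes. ERBIN, a leucine-rich repeat and PDZ protein of the Scribble family, was higher by 0.15 ± 0.04 (edgeR adjusted p = 0.0231), lost without SC 0.77 cP replicate 1 or SC 8 cP replicate 3 (0.079 to 0.119). The scaffold kinase CASK was at 0.12 (edgeR adjusted p = 0.0877) and the planar polarity protein VANGL1, a partner of SCRIB, at 0.11 (0.13), and CASK passed without SC 0.77 cP replicate 3 (0.0241). Between the lines 2 were called, 16.7% against 20.0% of all genes. VANGL1 fell by 0.25 ± 0.05 (edgeR adjusted p = 0.00185), which held whichever library was left out. The Scribble relative LRRC1 was higher by 0.22 (edgeR adjusted p = 0.0332), lost without SC 8 cP replicate 1 or 2 or shTRPV4 replicate 2 or 3 (0.0762 to 0.155) and with the replicate block (0.0509). CASK was at -0.07 there (edgeR adjusted p = 0.289). Across the extreme groups 2 were higher and 2 lower of the 12, 33.3% against 42.4% of all genes, and the count was 1 without shTRPV4 replicate 2 and 2 without SC 0.77 cP replicate 2 or 3 or SC 8 cP replicate 2. The values were ERBIN at 0.20, LRRC1 at 0.21 and VANGL1 at -0.14 (edgeR adjusted p 0.00133, 0.0197 and 0.0256). There LRRC1 was lost without SC 0.77 cP replicate 3 or shTRPV4 replicate 2 (0.0775 to 0.0895). VANGL1 was lost without SC 0.77 cP replicate 2 or 3, SC 8 cP replicate 2 or shTRPV4 replicate 2 (0.0505 to 0.145) and in the fit of the 6 compared libraries (0.0623).

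Of 12 junction genes 11 were tested, CDH1 being too low. With viscosity 4 were called, all lower, or 36.4% of the list where 19.3% of all genes were called and 9.69% were lower. The count was 1 without SC 0.77 cP replicate 1 or 2 or SC 8 cP replicate 1, and 2 without SC 8 cP replicate 2 or 3. F11R, encoding the tight junction adhesion molecule JAM-A that binds PAR3, fell by 0.34 ± 0.07 (edgeR adjusted p = 0.00541). F11R fell by a further 0.43 ± 0.07 between the lines at 8 cP (edgeR adjusted p = 0.000701), and its level was 15.8 ± 1.23 CPM in SC at 0.77 cP, 12.5 ± 0.44 in SC at 8 cP and 9.27 ± 0.46 in shTRPV4. The F11R calls held whichever library was left out. Exons of F11R share 1853 of 5061 bases with another annotated gene on the same strand. Its counts may be partial for that reason, which was not tested. TJP3, encoding ZO-3, fell by 1.51 ± 0.42 with viscosity, from 0.802 ± 0.248 to 0.277 ± 0.126 CPM (edgeR adjusted p = 0.0209), a low-count gene whose call was lost without SC 0.77 cP replicate 1 or 2 or SC 8 cP replicate 1 or 3 (0.0647 to 0.104). CTNND1, encoding p120 catenin, fell by 0.22 with viscosity (edgeR adjusted p = 0.0289), which was lost when any SC library other than SC 0.77 cP replicate 3 was left out (0.0615 to 0.139) and with no filter on low counts (0.0574). Exons of CTNND1 share 5952 of 15212 bases with other annotated genes on the same strand. Its counts may therefore be partial, and the effect on its level and change was not tested. The fourth, NECTIN2, an adhesion receptor that binds afadin and is named here after its values were seen, fell by 0.15 (edgeR adjusted p = 0.0321). The NECTIN2 call was lost without SC 0.77 cP replicate 1 or 2 or SC 8 cP replicate 1 or 2. Between the lines 3 of 11 were called, 27.3% against 20.0% of all genes. AFDN, encoding the actin-linked adaptor afadin, was higher in shTRPV4 by 0.34 ± 0.04 (edgeR adjusted p = 8.29e-05), and TJP1, encoding ZO-1, by 0.23 (edgeR adjusted p = 0.0206), the latter lost without SC 8 cP replicate 2 or shTRPV4 replicate 1 or 2 (0.0562 to 0.0891). Across the extreme groups 3 of 11 were higher and 4 lower, 63.6% against 42.4% of all genes, with F11R at -0.77, AFDN at 0.31 and NECTIN2 at -0.25 (edgeR adjusted p 1.08e-06, 6.1e-05 and 0.00035).

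**Figure D5:**
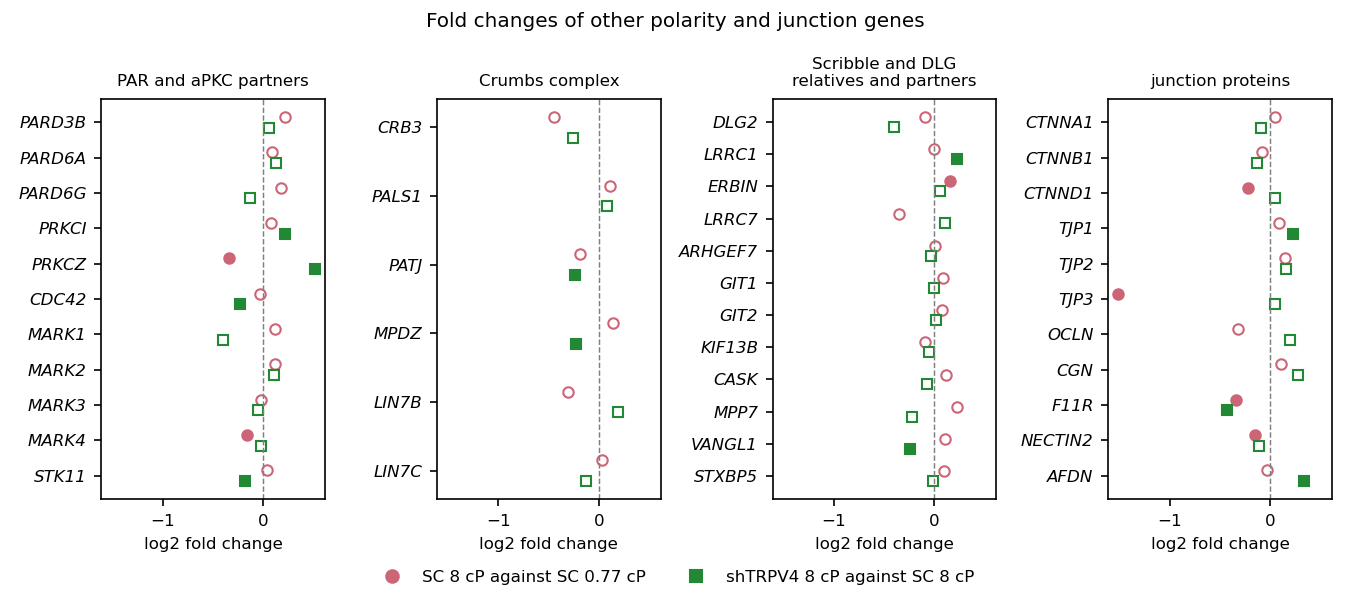
Log2 fold change (edgeR, horizontal axis) of the tested genes of the 4 wider lists, with viscosity in SC cells (circles) and between the lines at 8 cP (squares). Filled symbols have an adjusted p below 0.05. F11R lies below 0 in either comparison, and PRKCZ lies below 0 with viscosity and above 0 between the lines.

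Over the 9 libraries, the genes whose log2 CPM followed DLG1 most closely among 12914 genes were NCKAP1, ZMAT3 and ZFR, with Pearson r of 0.988, 0.985 and 0.98. For DLG3 they were MCL1, ERRFI1 and OASL at 0.997, 0.993 and 0.992, and for SCRIB they were UTP20, USP46 and NUP205 at 0.997, 0.992 and 0.992. These values are descriptions only, since the 9 points fall in 3 groups and share the libraries, so that any pair of genes that differ between the groups tends to correlate.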

How the data were processed

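RNA of 9 MDA-MB-231 libraries was read as 100 bp pairs from poly(A), strand-specific libraries. The authors aligned reads with HISAT2 (2.2.1) to GRCh38.p13 and counted genes of Ensembl 104 with HTSeq (0.13.5), and they deposited unnormalized counts per gene. The strand option of the counting was not given in the sources used here. The labels do not say that replicates were separate cultures, so p-values measure the spread between libraries, which may be technical, and they give no batch. No pair of libraries held identical values.

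The deposited counts were tested in R 4.3.3 with edgeR 4.0.16 (filterByExpr, TMM scaling, quasi-likelihood fit over the 3 groups, all 9 libraries sharing 1 estimate of spread), with Benjamini-Hochberg adjustment over 18264 genes and a threshold of 0.05. CPM are counts per 1000000 of the TMM-scaled library size, and a fold change is on the log2 scale of the edgeR fit. An exact permutation test of 3 against 3 libraries cannot go below p = 0.1 (20 splits), so single-gene permutation p-values are not used. Of 60664 identifiers, 60463 matched a symbol. Positions, exon lengths and overlaps came from GENCODE 44 on GRCh38. The script was tested on simulated counts. Alternatives were DESeq2 1.42.0, upper quartile scaling, no filter, a floor of 10 counts in each library, a fit of the 6 compared libraries alone, a replicate block and leaving out each library. Per list and comparison, the 3 genes with the smallest adjusted p were eligible for naming, and the genes followed for likeness of pattern were fixed by name. The members and lists were chosen with earlier results of these data known.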

Additional observations from a re-analysis of the deposited data

How the results depend on the processing

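Under the alternatives other than leaving out a library, 158 of 162 fold changes of the polarity genes kept direction and call, and none reversed. The exceptions were the gain of DLG5 between the lines with DESeq2, upper quartile scaling and no filter, and the loss of LLGL1 there with no filter. Leaving out 1 library kept 215 of 243, lost 22 calls and gained 2, and reversed 4 uncalled values: DLG5 with viscosity to 0.0050 without SC 0.77 cP replicate 3, DLG1 between the lines to 0.011 without shTRPV4 replicate 1, LLGL2 between the lines to -0.027 without shTRPV4 replicate 3, and PARD3 across the extreme groups to -0.016 without shTRPV4 replicate 1. Over the fits with a library left out these values ranged from -0.061 to 0.0050 for DLG5, -0.031 to 0.011 for DLG1, -0.027 to 0.16 for LLGL2 and -0.016 to 0.059 for PARD3. The cause was not tested. Polarity genes called ranged from 4 to 5 with viscosity, from 1 to 5 between the lines, and stayed at 8 across the extreme groups. Over all genes tested, with 1 library left out, the calls ranged from 1409 (without SC 0.77 cP replicate 1) to 4349 with viscosity against 3518 in all libraries, and from 2179 (without SC 8 cP replicate 2) to 3836 between the lines against 3649. Of the counts called in the 9 polarity genes and the 4 wider lists, 35 of 135 moved by over 1.5 times when a library was left out. In the wider lists the calls with viscosity then ranged from 0 to 2 for PAR partners, 0 to 1 for Crumbs genes, 0 to 2 for Scribble relatives and 1 to 5 for junction genes, and between the lines from 4 to 5, 0 to 4, 1 to 2 and 2 to 3. They ranged across the extreme groups from 5 to 7, 2 to 3, 1 to 4 and 6 to 8. No filter left 1 called PAR partner with viscosity, the 6 samples compared left 2 called Scribble relatives across the extreme groups, and the replicate block 1 between the lines.

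Replicate numbers did not pair the libraries: deviations of same-numbered libraries correlated from -0.0546 to 0.0904 over 9 pairs of libraries, against -0.106 to 0.115 over 18 pairs with different numbers. With the replicate block 5 polarity genes were called with viscosity, 4 between the lines and 8 across the extreme groups, the same numbers as without it, and no call of a polarity gene changed.

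The polarity genes had at least 792 counts in every library, whereas TRPV4 had 1 to 64 and TJP3 10 to 90, which limits their precision.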
